A study of Mus musculus with 10 samples.

Results

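Transcripts of 35 genes of cell division and DNA replication were examined in the posterior wall of the left ventricle of mice lacking the melanocortin 4 receptor (Mc4r) and of wild type mice. The genes are a list of symbols drawn up with earlier results of these data known, Cenpf among them, and all 35 have a row among the 24160 rows of the table. Mc4r encodes a receptor of brain circuits that limit feeding, and the series concerns dilated cardiomyopathy in mice without it. One of the genes, the kinetochore gene Cenpf, was already known to be lower in these knockout hearts. The question put to the list was whether the lower Cenpf goes with other genes of proliferating cells. The groups are 6 libraries of MC4R-/- mice and 4 of WT mice, all of strain C57BL6/J, aged 30 weeks, bred from heterozygous parents and given no treatment in the labels. The labels name no construct, promoter or tissue for the loss of the gene. Nothing in them ties each library to its own animal, and p-values therefore speak only of the spread among these libraries, which may be technical.

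A dividing cell first commits in G1 phase, when D cyclins and then cyclin E release E2F factors, copies its DNA with the MCM helicase, PCNA and a supply of nucleotides, and then builds a spindle that pulls on chromosomes through kinetochores. Most genes of the later steps are silent in resting cells and are switched on together, through E2F sites and through a promoter element called CHR (cell cycle genes homology region) that holds the DREAM repressor complex in resting cells. Heart muscle cells of the adult mouse have largely left the cell cycle, so that transcripts of these genes in ventricle can also come from other cells. Cenpf (centromere protein F) is a very large coiled-coil protein of the outer kinetochore that also binds microtubules outside mitosis, and its removal from mouse heart muscle is known to cause dilated cardiomyopathy.

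Depth and sample quality set limits on what could be seen. The values are read counts divided by a size factor per library, called normalized counts here, and 1 read was worth 0.871 to 1.38 of them. Recovered reads ran from 4145033 to 6425785 per library. Ventricular muscle markers made up 10.2 to 11.5% of the summed values, and 13 of 13 of them were tested. Mc4r had 4 reads over the knockout and 2 over the wild type libraries, so it checks no label. Wild type replicate 2 stood apart in its lymphocyte markers, with a summed level of 1729 against 94.1 to 168 in the other 9 libraries (19 of 20 markers have a row, and Ighm has none), so the counts and medians are also given without it. The first principal component (22.6% of the variance) set wild type replicate 2 apart and the second (14.5%) wild type replicate 3. Knockout replicate 5 had a summed level of 3418 for 6 atrial markers against 515 to 1364 elsewhere.

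Of the 35 genes, 1 passed the test between genotypes, and it was Cenpf, which was lower in the knockout. As Cenpf was listed with its lower level already known, its call is no independent result, and 0 of the other 34 genes passed. All 35 reached the mean of 1 normalized count needed for the test (limma on log2 of the normalized count plus 1, adjusted by Benjamini-Hochberg over all 14611 genes tested). Of all genes tested, 0.459% passed, 0.171% in the lower direction. The log2 fold changes of the 35, knockout over wild type, had a median of 0.00 and ran from -0.79 to 0.45, with 16 below 0 and 19 above. The median over all tested genes was -0.01. An unadjusted p below 0.05 was reached by 3 of the 35 (8.57%), against 9.6% of all genes tested. By edgeR 0 of the 35 passed against 0.342% of all genes, and by DESeq2 1 passed, again Cenpf, against 0.835%.

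Without wild type replicate 2 the median was -0.03, and Cenpf was again the 1 gene of the 35 that passed, where 0.803% of 14576 genes did (0.329% lower and 0.473% higher). An unadjusted p below 0.05 was then reached by 2 of the 35, Cenpf and Ccnd2, against 9.9% of all genes. By edgeR without that library 1 of the 35 passed, against 0.741% of all genes.

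**Figure D1:**
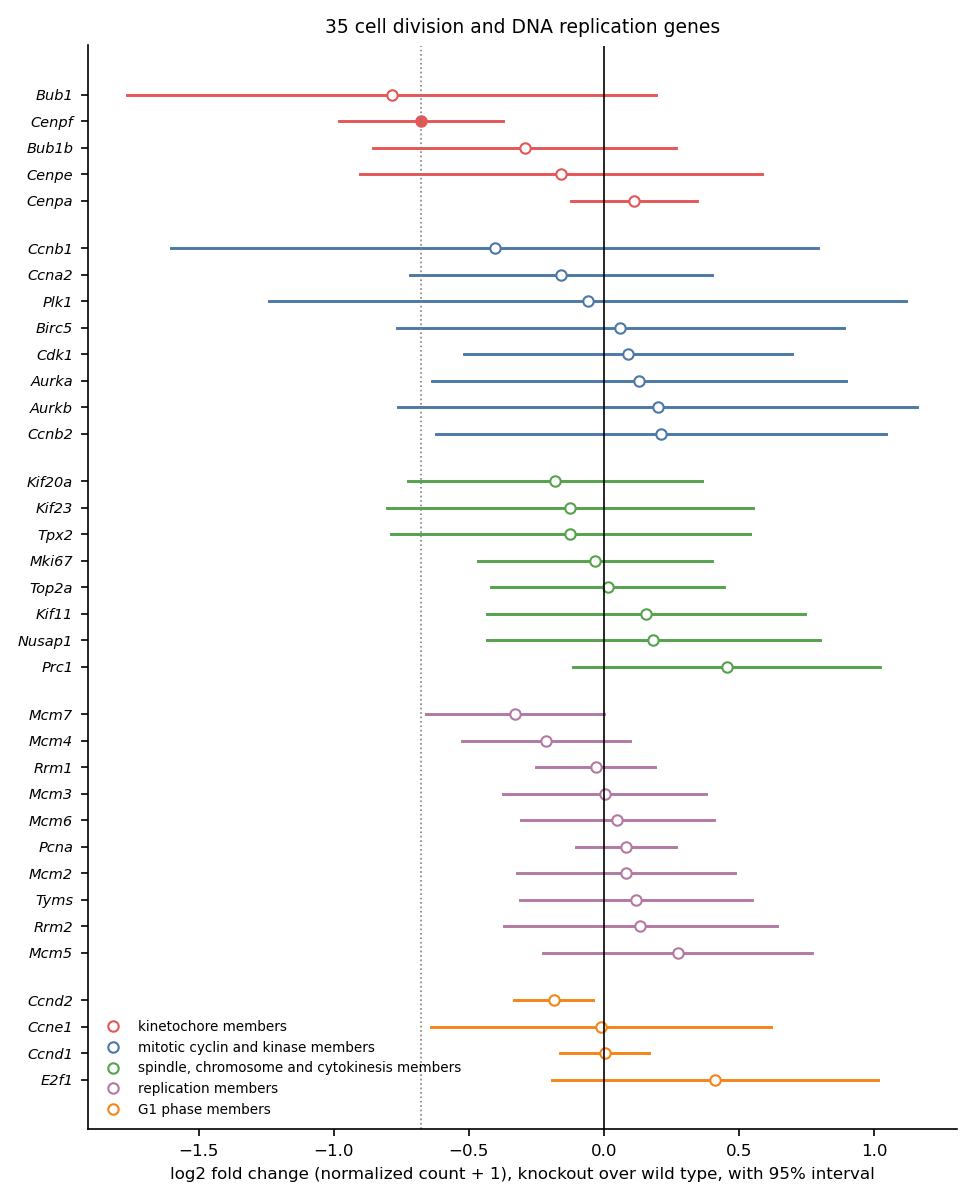
Log2 fold change of each of the 35 genes (x axis, log2 of the normalized count plus 1, knockout over wild type), grouped by role, with 95% intervals from limma; the filled point passed an adjusted p of 0.05 and the dotted line marks Cenpf. Cenpf is the filled point at -0.68, and the intervals of 32 of the other 34 genes include 0.

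Cenpf (chr1:189640606-189688107, GRCm38.p6) was measured at 104, 108, 165 and 163 normalized counts in wild type replicates 1 to 4. In the knockout the lowest value was 63.6, the median 80.4 and the highest 98.0. Every knockout library lay below every wild type library, and wild type replicates 3 and 4 were well above replicates 1 and 2. Cenpf was the 1 gene of the 35 with such a separation, which 0.938% of all genes tested showed in the lower direction, 1.34% in the higher and 2.28% in either. It was listed with its lower level already known, and 0 of the other 34 genes separated. Without wild type replicate 2 it was still the 1 gene, and the shares of all genes were 2.41%, 2.41% and 4.82%. Knockout libraries averaged 82.8 ± 12.5 (SD, n = 6), and wild type libraries 135 ± 33.4 (SD, n = 4). Cenpf fell by 0.68 ± 0.15 (SE) on the log2 scale (95% interval -0.98 to -0.38; limma, adjusted p = 0.0321). Without wild type replicate 2 it fell by 0.77 ± 0.15 (limma, adjusted p = 0.00745). By edgeR on the recovered reads the adjusted p was 0.0513 with all libraries and 0.00703 without wild type replicate 2, and by DESeq2 it was 0.00644.

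The call on Cenpf rested on several single libraries, while its direction did not. Leaving out 1 library at a time gave log2 fold changes of -0.79 to -0.57, and 4 of 10 such fits passed. The adjusted p (limma) was 0.0936, 0.0823, 0.0669 and 0.0627 without knockout replicates 1, 2, 3 and 4, and 0.133 and 0.183 without wild type replicates 3 and 4. Without both libraries that stood apart in wild type, replicates 2 and 3, the log2 fold change was -0.66 (limma, adjusted p = 0.107). In those same wild type replicates 3 and 4 the summed level of 10 smooth muscle and pericyte markers was 12957 and 12462, against 10260 to 11192 in the other 8 libraries. None of those 10 markers was at 0 throughout and 0 passed the test between genotypes by limma. Their part in the Cenpf result was not tested. In bulk tissue, fewer cells of a type and less RNA per cell cannot be told apart.

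**Figure D2:**
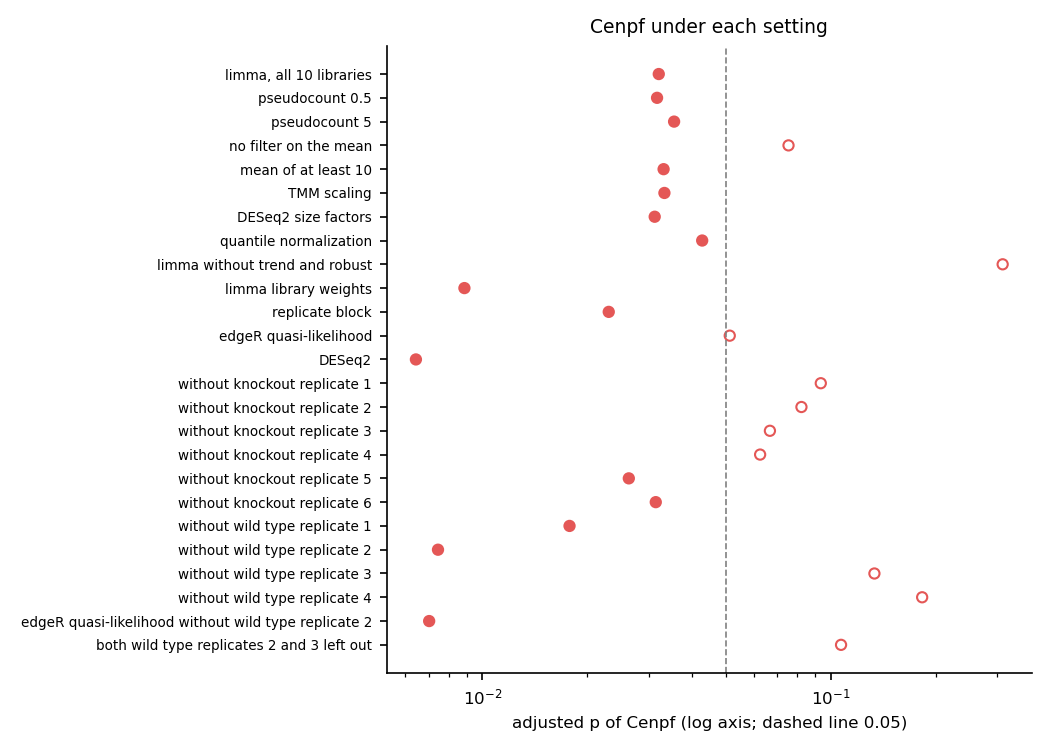
Adjusted p of Cenpf (x axis, logarithmic; dashed line at 0.05) under the fit on all 10 libraries and 24 other settings, 1 point each; filled points pass. It passed under 14 of the 24, and the adjusted p ran from 0.00644 (DESeq2) to 0.311 (limma without trend and robust steps).

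Because many genes of the list are known to be switched on together, the promoter of Cenpf is shown beside those of the 4 genes compared with it as common marks of proliferation: Mki67, Top2a, Kif11 and Mcm5. Each runs from 200 bases before the start used by the RefSeq promoter table to 30 bases after it (GRCm38.p6), 5′ to 3′ on the gene's strand. That start lies inside the outer end of the gene's whole span by 21 bases in Cenpf, 71 in Mki67, 10 in Top2a and 41 in Mcm5, and by 0 in Kif11. Cenpf lies at chr1:189688057-189688286 (minus strand), Mki67 at chr7:135716350-135716579 (minus), Top2a at chr11:99024160-99024389 (minus), Kif11 at chr19:37376182-37376411 (plus) and Mcm5 at chr8:75109309-75109538 (plus). Capitals mark matches to the CHR letters TTTGAA or TTCGAA, to the E2F letters TTTCCCGC, TTTGGCGC, TTTCGCGC or TTTGCCGC, and to CCAAT, on either strand.
Cenpf: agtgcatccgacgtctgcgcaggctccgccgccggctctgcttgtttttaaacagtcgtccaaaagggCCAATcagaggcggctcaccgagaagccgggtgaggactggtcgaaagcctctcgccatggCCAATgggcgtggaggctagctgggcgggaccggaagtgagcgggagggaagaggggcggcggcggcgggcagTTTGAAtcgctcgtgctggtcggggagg
Mki67: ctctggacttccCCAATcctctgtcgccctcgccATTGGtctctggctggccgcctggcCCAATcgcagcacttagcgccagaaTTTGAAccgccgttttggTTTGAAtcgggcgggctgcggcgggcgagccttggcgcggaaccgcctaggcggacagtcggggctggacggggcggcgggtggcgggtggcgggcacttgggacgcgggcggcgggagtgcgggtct
Top2a: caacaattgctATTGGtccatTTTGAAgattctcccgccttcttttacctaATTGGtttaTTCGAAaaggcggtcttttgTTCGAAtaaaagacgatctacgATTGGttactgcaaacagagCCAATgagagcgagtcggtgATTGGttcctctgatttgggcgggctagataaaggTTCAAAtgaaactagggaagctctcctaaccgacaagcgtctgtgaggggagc
Kif11: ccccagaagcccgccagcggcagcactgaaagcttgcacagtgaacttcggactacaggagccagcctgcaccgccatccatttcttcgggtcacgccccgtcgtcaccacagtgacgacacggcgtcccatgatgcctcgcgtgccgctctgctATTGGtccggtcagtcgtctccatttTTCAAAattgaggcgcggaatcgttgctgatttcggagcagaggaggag
Mcm5: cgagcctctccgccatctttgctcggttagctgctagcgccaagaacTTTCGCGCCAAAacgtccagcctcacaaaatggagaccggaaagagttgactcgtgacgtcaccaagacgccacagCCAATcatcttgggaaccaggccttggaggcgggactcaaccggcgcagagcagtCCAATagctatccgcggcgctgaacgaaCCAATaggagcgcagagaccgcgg
Counted from the table's start, with negative positions before it, Cenpf has 1 CHR match, whose first base is at 3, and CCAAT at -132 and -71. Mki67 has CHR letters at -116 and -98, Top2a has its nearest at -23 and Kif11 at -19. The capitals of Mcm5 include a pair of overlapping E2F matches on opposite strands and no CHR match.

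Of the 35 genes, 28 have a promoter in the RefSeq table, which spans 250 bases before to 50 after each start. CHR letters occurred in 15 of the 28 genes, against 19.2% of all 32851 promoters of that length. The E2F letters occurred in 5 of the 28 (Cdk1, Mcm3, Mcm5, Mcm6 and Mcm7), against 2.26% of all promoters, and CCAAT in 23 of the 28, against 37.4%. The 28 are counted by gene, where any matching promoter of the gene is enough, and the shares of all promoters by promoter. The units therefore differ, which can raise the counts of the 28. A match of letters describes these windows only.

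The other kinetochore genes did not pass. Over the 5 kinetochore genes, Cenpf included, the median log2 fold change was -0.29, with 4 below 0 and 1 above. Without wild type replicate 2 this median was -0.39. Bub1, a kinase of the spindle checkpoint, was sparse, at 2.89, 3.61, 6.92 and 5.28 normalized counts in wild type replicates 1 to 4 and from 0 to 4.36 (median 2.55) in the knockout. Its values overlapped between genotypes, and the difference on the log2 scale was -0.79 ± 0.48 (SE; limma, adjusted p = 0.647). Its interval of -1.76 to 0.19 is wide enough to hold both no change and a change larger than that of Cenpf. Cenpe, a kinesin that carries chromosomes to the metaphase plate, was likewise higher in the later-numbered wild type libraries, with 4.81 and 4.51 in replicates 1 and 2 and 13.8 and 12.3 in replicates 3 and 4. The knockout libraries lay between, from 4.89 to 11.1 with a median of 7.10. The log2 fold change of Cenpe was -0.16 ± 0.36 (SE), and -0.39 ± 0.38 without wild type replicate 2. Bub1b, the checkpoint protein BubR1, had 12.5 to 16.4 in wild type and 8.14 to 16.2 in the knockout. Its log2 fold change was -0.29 ± 0.27 (SE). Cenpa, the histone H3 variant that marks centromeres, was far more abundant, at 138 to 219 in wild type and 165 to 208 in the knockout, and its interval of -0.12 to 0.35 lay above the change of Cenpf.

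**Figure D3:**
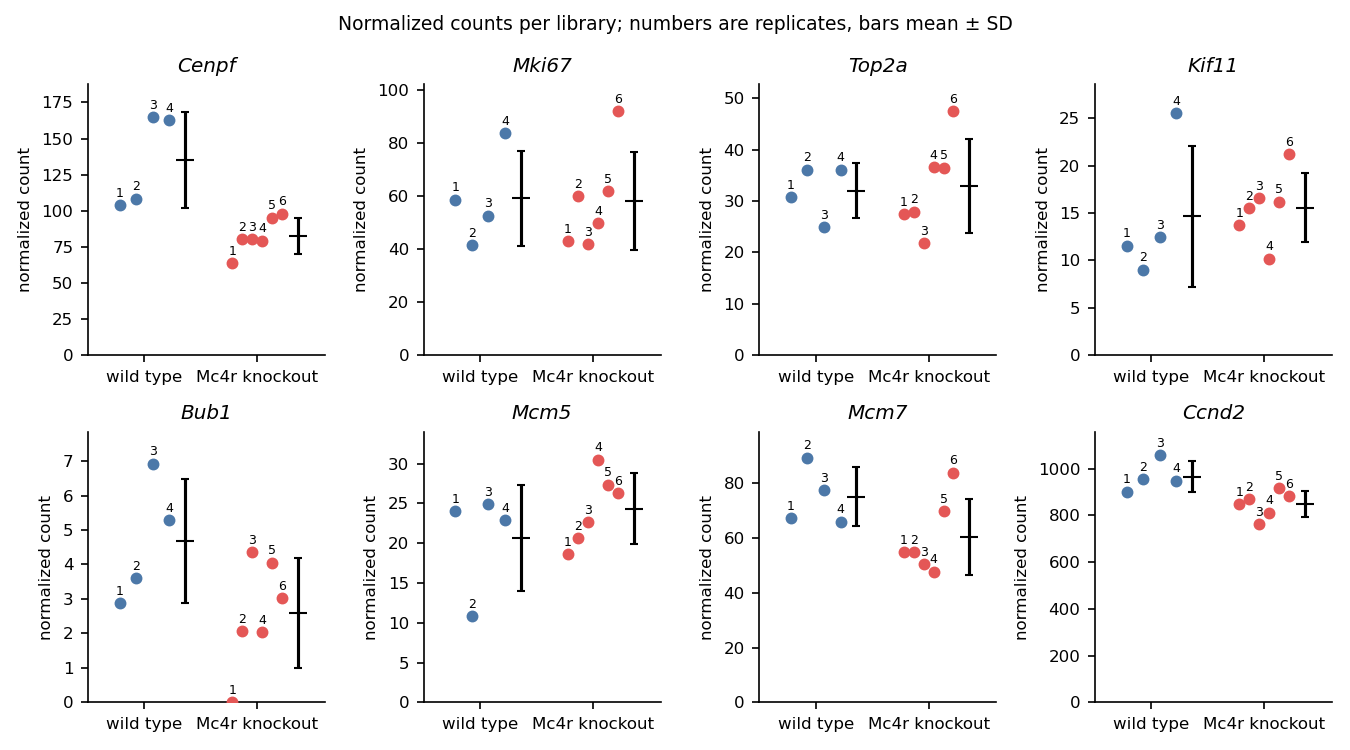
Normalized count (y axis from 0) of 8 genes in each library of wild type (blue) and Mc4r knockout (red); the number at each point is the replicate and the bars are mean ± SD. The Cenpf points do not overlap between genotypes (63.6 to 98.0 against 104 to 165), and those of the other 7 genes do.

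Genes of mitotic entry were at the lower edge of detection. The 8 genes for mitotic cyclins, their kinase Cdk1, the Aurora kinases, Birc5 (survivin, a partner of Aurora B) and Plk1 (polo-like kinase) had 43 to 140 reads each over the 10 libraries. None passed (0 by limma and edgeR, 0 with an unadjusted p below 0.05), 3 had a negative and 5 a positive log2 fold change, and the median was 0.07. Ccna2, cyclin A2, had 11.5, 10.8, 16.6 and 21.1 normalized counts in wild type replicates 1 to 4 and 11.2 to 19.2 (median 11.9) in the knockout. The log2 fold change of Ccna2 was -0.16 ± 0.27 (SE; interval -0.72 to 0.40; limma, adjusted p = 0.901), and its span overlaps Exosc9. Ccnb1, cyclin B1, ranged from 1.38 to 9.68 in wild type and from 0 to 7.23 in the knockout, and its interval of -1.60 to 0.79 shows how little these counts can tell. Cdk1 itself had 8.66, 9.03, 18.0 and 8.80 in wild type and 8.71 to 15.2 in the knockout. DESeq2 gave none of these 8 an adjusted p, and none to 21 of the 35 in all.

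Among the spindle and chromosome genes, Mki67 and Top2a were the most abundant, and their means were close to each other in the 2 genotypes. Mki67, which encodes the Ki-67 protein of cycling nuclei, had 58.7, 41.5, 52.6 and 83.6 normalized counts in wild type replicates 1 to 4 and 41.8 to 91.9 (median 54.9) in the knockout. The highest value of each genotype, in wild type replicate 4 and knockout replicate 6, lay far above the others. Mki67 had a log2 fold change of -0.03 ± 0.21 (SE; 95% interval -0.47 to 0.40; limma, adjusted p = 0.979). This interval does not reach the Cenpf estimate of -0.68 but overlaps the Cenpf interval of -0.98 to -0.38. Top2a, the topoisomerase that untangles chromosomes before division, had 30.8, 36.1, 24.9 and 36.1 in wild type and 21.8 to 47.5 (median 32.2) in the knockout. For Top2a the log2 fold change was 0.01 ± 0.21 (interval -0.42 to 0.44).

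Spindle and cytokinesis genes spread in both directions. Kif11, the kinesin that pushes spindle poles apart, had 11.5, 9.03, 12.5 and 25.5 normalized counts in wild type and 10.2 to 21.2 (median 15.9) in the knockout. This gave a log2 fold change of 0.16 ± 0.29 with all libraries and of -0.02 ± 0.30 without wild type replicate 2. Prc1, which crosslinks the microtubules of the central spindle, had 13.5, 9.93, 15.2 and 17.6 in wild type and 13.9 to 38.4 (median 16.9) in the knockout. This was the largest positive value of the 35, 0.45 ± 0.28 (interval -0.11 to 1.02; limma, adjusted p = 0.648), and knockout replicate 6 held the top value. Kif20a, a kinesin of cytokinesis, had 12.5 to 18.5 in wild type and 9.58 to 18.2 in the knockout, with a log2 fold change of -0.18 ± 0.27. Kif23, another kinesin of the central spindle, had 8.66 and 7.22 in wild type replicates 1 and 2 against 26.3 and 18.5 in replicates 3 and 4, with 8.71 to 17.6 in the knockout. The remaining genes, Tpx2 and Nusap1, which act on spindle microtubules, had 8.31 to 19.4 and 8.12 to 12.3 in wild type and 5.06 to 16.5 and 8.26 to 23.4 in the knockout.

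Summed over the 20 mitotic genes other than Cenpf, the level was 377, 362, 471 and 486 in wild type replicates 1 to 4 and 363 to 527 (median 433) in the knockout. The genotypes overlapped, and Cenpa made up the largest part of the sum. Cenpf was 21.6 to 25.9% of the sum of all mitotic genes of the list in wild type and 14.7 to 17.8% in the knockout, without overlap. These shares are a description, since Cenpf entered with its difference known.

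The DNA replication genes were better covered, with 223 to 2263 reads each, and 0 of 10 passed by limma, edgeR or DESeq2 (1 had an unadjusted p below 0.05, and 2 had no adjusted p by DESeq2). The helicase subunit gene Mcm7 had 67.3, 89.4, 77.5 and 66.0 normalized counts in wild type and 47.8 to 83.8 (median 54.8) in the knockout. Of the 6 knockout libraries, 4 lay below all wild type libraries and the other two did not. For Mcm7 the log2 difference by limma was -0.33 ± 0.16 (adjusted p = 0.518), and -0.24 ± 0.17 without wild type replicate 2 (adjusted p = 0.673). The Mcm7 span overlaps Ap4m1 and 3 microRNA genes. In all, 12 of the 35 spans overlap another gene, among the named ones also Ccna2, Kif11, Kif20a, Prc1, Top2a, Ccnd2 and E2f1 but not Cenpf, Mki67 or Mcm5, and as no source used here gives the strand setting of the counting, those values are less certain. Mcm4, another subunit, had 83.7, 65.0, 60.9 and 58.1 in wild type and 42.7 to 62.6 in the knockout, a log2 difference by limma of -0.21 ± 0.15 (adjusted p = 0.707).

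Mcm5, a further subunit of the helicase, was low in 1 wild type library. It had 24.1, 10.8, 24.9 and 22.9 normalized counts in wild type replicates 1 to 4 and 18.6 to 30.5 (median 24.5) in the knockout. The log2 fold change of Mcm5 was 0.27 ± 0.24 with all libraries and 0.00 ± 0.23 without wild type replicate 2, the low one. Of the other replication genes, Mcm2, Mcm3 and Mcm6 had log2 fold changes between 0.00 and 0.08.

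The narrowest limits among the replication genes came from Pcna, the sliding clamp of DNA polymerase, and Rrm1, the large subunit of ribonucleotide reductase. Pcna had 204, 208, 234 and 222 normalized counts in wild type and 202 to 260 (median 226) in the knockout, and its interval was -0.10 to 0.27. Rrm1 had 131, 149, 165 and 123 in wild type and 118 to 146 (median 140) in the knockout, with an interval of -0.25 to 0.19. Rrm2, the subunit made mainly in S phase, had 18.1 to 22.1 in wild type and 15.5 to 34.6 in the knockout. Tyms, thymidylate synthase, had 22.9 to 44.2 and 26.9 to 48.6. Summed over the 10 replication genes, the level was 752, 742, 786 and 688 in wild type and 636 to 821 (median 767) in the knockout.

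The G1 genes held the most abundant transcripts of the list. Ccnd2, cyclin D2, had 901, 955, 1058 and 948 normalized counts in wild type replicates 1 to 4 and 764 to 917 (median 859) in the knockout. Its values overlapped only through wild type replicate 1, the lowest of that genotype, and knockout replicate 5, the highest of the other. Its means were 849 ± 54.2 (SD, n = 6) in the mutants and 966 ± 65.9 (SD, n = 4) in wild type, and the log2 fold change of -0.19 ± 0.07 did not pass (interval -0.33 to -0.04; limma, adjusted p = 0.343). It did not pass without wild type replicate 2 either, at -0.19 ± 0.08 (limma, adjusted p = 0.353). Ccnd1, cyclin D1, whose row joins it with the microRNA gene Mir3962, had 520 to 677 in wild type and 518 to 624 in the knockout, with an interval of -0.16 to 0.17. E2f1, the transcription factor that opens S phase, had 12.5, 9.03, 5.54 and 7.92 in wild type and 9.30 to 15.2 (median 11.3) in the knockout. The log2 difference of E2f1 by limma was 0.41 ± 0.29 (adjusted p = 0.711), opposite in sign to that of Cenpf. Ccne1, cyclin E1, had 7.70 to 12.6 and 7.09 to 15.7.

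Precision differed widely across the list, with 19 of the 35 genes under a mean of 20 normalized counts. The 95% interval lay wholly above the estimated change of Cenpf for 23 of the other 34 genes, among them Mki67, Top2a, Kif11, Cdk1, Pcna and the 6 Mcm genes. That count takes the Cenpf estimate as exact, whereas its own interval ran from -0.98 to -0.38. Cenpf was also listed with its lower level already known, so the count gives no independent support. Among the 23, the intervals of Mki67, Top2a, Kif11, Cdk1, Mcm4, Mcm7, Ccnb2, Aurka, Nusap1 and Ccne1 overlap the Cenpf interval. Those of Pcna, Mcm2, Mcm3, Mcm5 and Mcm6 lie above it. For the other 11, Cenpe, Bub1, Bub1b, Ccna2, Ccnb1, Aurkb, Birc5, Plk1, Kif20a, Kif23 and Tpx2, the interval included the Cenpf estimate. At this depth, no change and a fall as large as that of Cenpf could not be told apart in those 11.

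Per length, Cenpf stood above most other mitotic genes. Divided by transcript length, Cenpf had 12.1 normalized counts per kilobase in wild type and 7.44 in the knockout. Mki67, of similar length, had 5.88 and 5.77 per kilobase, and Top2a had 6.12 and 6.31. Cenpa stood far above both, with 113 in wild type and 120 in the knockout per kilobase, near the level of Pcna at 143 and 151. Cenpe and Bub1 were the lowest in wild type among the kinetochore genes, at 1.12 and 1.37 per kilobase.

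Whether the fold change of Cenpf differed from those of proliferation genes was tested on the log2 ratio of Cenpf to each of the 4 genes in every library. This test was added after the values had been seen, and Cenpf entered it because it was known to be lower, so it gives no independent support. Relative to Mki67, Cenpf was lower in the knockout by a log2 difference of -0.65 (exact two-sided permutation test, p = 0.019, adjusted over 4 genes 0.0254). The difference was -0.69 relative to Top2a (exact permutation p = 0.0381, adjusted 0.0381). It was -0.83 relative to Kif11 (exact permutation p = 0.019, adjusted 0.0254). Relative to Mcm5 it was -0.95 (exact permutation p = 0.00952, the smallest this design can give, adjusted 0.0254). Without wild type replicate 2 the differences were -0.59, -0.85, -0.75 and -0.78, each with an adjusted exact permutation p of 0.0476. Without wild type replicate 3 the adjusted exact p was 0.0635 for Mki67, Kif11 and Mcm5 and 0.0952 for Top2a, with differences of -0.50, -0.69, -0.95 and -0.47. Without wild type replicate 4 it was 0.0635 for Mki67 and 0.0952 for Top2a, and for Top2a it was also 0.0635 without any of knockout replicates 1, 4, 5 or 6.

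Across the 10 libraries none of the 4 genes had a correlation with Cenpf that passed the test. Pooling the genotypes brings in the genotype difference of Cenpf, for which it was listed and which can lower r. A weak r over the 10 libraries therefore cannot show that Cenpf is unrelated to these genes. Pearson's r of log2 values was 0.42 with Mki67 (permutation p = 0.219, adjusted 0.876; Spearman's rho 0.28, p = 0.426, adjusted 0.972). With Top2a it was 0.13 (permutation p = 0.724; rho 0.03, p = 0.947), with Kif11 0.24 (p = 0.515; rho 0.03, p = 0.946) and with Mcm5 0.03 (p = 0.933; rho 0.02, p = 0.972). For Top2a, Kif11 and Mcm5 the permutation p adjusted over the 4 relations was 0.933 for r and 0.972 for rho. Without the 2 libraries farthest from the median of the other gene, r was 0.24, 0.02, -0.09 and 0.50 in the same order. With wild type replicate 2 left out it was 0.51, 0.11, 0.34 and 0.24 (adjusted permutation p = 0.631, 0.777, 0.719 and 0.719).

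Within the knockout the 4 values of r were higher, and none passed. Over the 6 knockout libraries r was 0.79 with Mki67 (exact permutation p = 0.0667; rho 0.83, p = 0.0583), 0.64 with Top2a (p = 0.158; rho 0.54, p = 0.297), 0.57 with Kif11 (p = 0.207; rho 0.77, p = 0.103) and 0.66 with Mcm5 (p = 0.147; rho 0.31, p = 0.564). The adjusted exact p of r was 0.207 for each, and that of rho 0.206 for Mki67 and Kif11, 0.396 for Top2a and 0.564 for Mcm5. Without the 2 farthest libraries r was 0.90, 0.70, 0.86 and 0.92, but each of these rests on only 4 libraries, too few to rely on, and was not tested. Knockout replicate 1 was lowest in Cenpf, and replicates 5 and 6 were highest. Wild type had 4 libraries, too few for a correlation of its own.

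**Figure D4:**
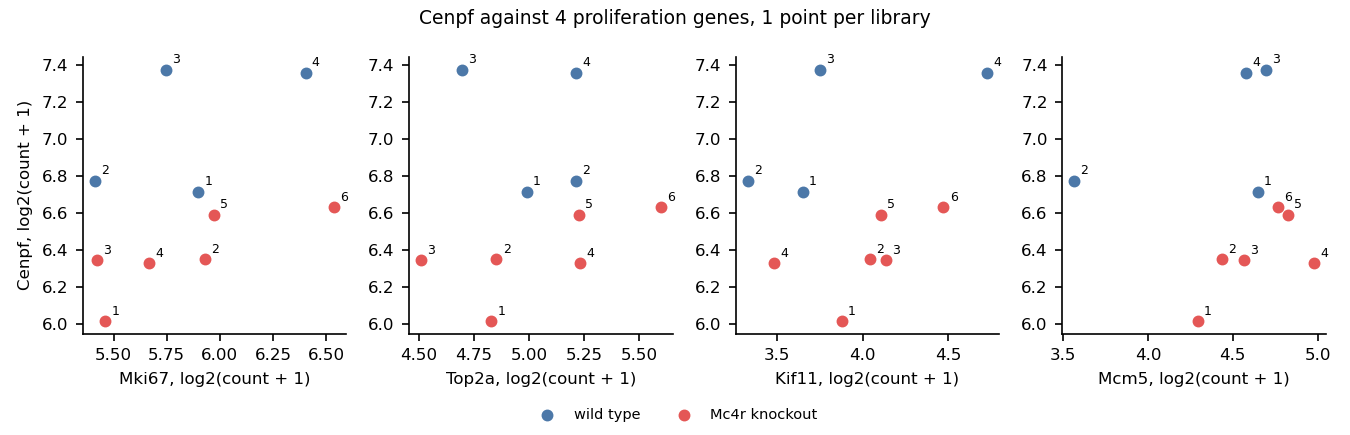
Cenpf (y axis) against Mki67, Top2a, Kif11 and Mcm5 (x axes), all as log2 of the normalized count plus 1, 1 point per library numbered by replicate, wild type in blue and knockout in red. Wild type replicates 3 and 4 lie at the top in each panel, while their places along the x axes differ, and r over the 10 libraries is 0.42, 0.13, 0.24 and 0.03.

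Other genes of the cell cycle were read from 5 lists that share no gene with the 35. Their 194 genes were all tested by limma and edgeR, and 0 passed by either. By DESeq2 0 passed as well, but 117 of the 194 had no adjusted p there and could not pass. By limma 18 (9.28%) had an unadjusted p below 0.05 (8 higher and 10 lower in the knockout) against 9.6% of all genes. Their log2 fold changes had a median of -0.04, with 108 below 0 and 86 above. Leaving out wild type replicate 2 gave a median of -0.04, and 0 passed by limma. The genotypes did not overlap in 5 of the 194 genes (Ncapd3, Timeless, Tfdp1, Btg2 and Cdk4, the last named after its values were seen), a share close to the 2.28% of all genes. In the order in which the lists follow, their medians without wild type replicate 2 were 0.14, -0.08, -0.03, -0.04 and -0.05.

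Among 38 other kinetochore and checkpoint genes the median log2 fold change was 0.11, with 15 below 0 and 23 above. Sgo2a, shugoshin 2, which guards cohesion at centromeres, had 129, 90.3, 111 and 112 normalized counts in wild type and 80.1 to 98.7 in the knockout, a log2 difference of -0.31 ± 0.12 by limma (adjusted p = 0.354). Nuf2, a subunit of the NDC80 complex that grips microtubules, had 0.903 to 4.40 in wild type and 1.74 to 7.09 in the knockout (0.89 ± 0.44; adjusted p by limma 0.52).

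Among 58 other genes of mitosis and cytokinesis the median was -0.06. Cks2, a small subunit that docks on cyclin-dependent kinases, had 0, 0.903, 1.38 and 6.16 normalized counts in wild type and 5.23 to 7.83 in the knockout. Its values overlapped through wild type replicate 4 alone, and the log2 fold change was 1.66 ± 0.45 (limma, adjusted p = 0.118). Without that library it passed, at 2.19 (limma, adjusted p = 0.0319). Ncapd3, a subunit of condensin II, had 165 to 195 in wild type and 135 to 164 in the knockout, without overlap. For Ncapd3 limma gave a log2 difference of -0.27 ± 0.10 (adjusted p = 0.301).

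Among 55 other replication genes the median was -0.01. Timeless, a component of the complex that protects replication forks, had 63.2 to 81.0 normalized counts in wild type and 82.4 to 114 in the knockout, without overlap (a log2 difference of 0.40 ± 0.13 by limma, adjusted p = 0.24). Clspn, the fork and checkpoint adaptor claspin, had 0 to 3.61 in wild type and 2.61 to 15.3 in the knockout (1.43 ± 0.49; limma, adjusted p = 0.262). Both had means above wild type, but the list as a whole had no common direction. At an unadjusted p below 0.05 (limma) 2 of the 55 were higher and 2 lower. The log2 fold change was below 0 in 28 and above in 27.

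Among 17 other G1 cyclin, kinase and E2F genes the median was -0.06. The E2F partner genes Tfdp1 and Tfdp2 had the smallest p and opposite signs. Tfdp1 had 162 to 184 normalized counts in wild type and 191 to 207 in the knockout (0.21 ± 0.09; limma, adjusted p = 0.416), and Tfdp2 had 869 to 936 and 636 to 884 (-0.17 ± 0.08; adjusted p by limma 0.52).

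Inhibitors of the cycle and genes of the resting state, 26 in number, had a median of -0.08. Btg2, an antiproliferative gene induced by p53, had 215, 285, 262 and 222 normalized counts in wild type and 163 to 211 (log2 fold change -0.35 ± 0.10; limma, adjusted p = 0.142) in the knockout, without overlap. Cdkn1b, the kinase inhibitor p27, had 163, 229, 170 and 156 in wild type and 113 to 170 in the knockout (-0.38 ± 0.12; limma, adjusted p = 0.22). In both, wild type replicate 2 was the highest library, and without it their log2 fold changes were -0.28 ± 0.10 and -0.26 ± 0.12 (limma, adjusted p = 0.305 and 0.461). That library's lymphocyte markers are given above, and their part in these values was not tested.

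**Figure D5:**
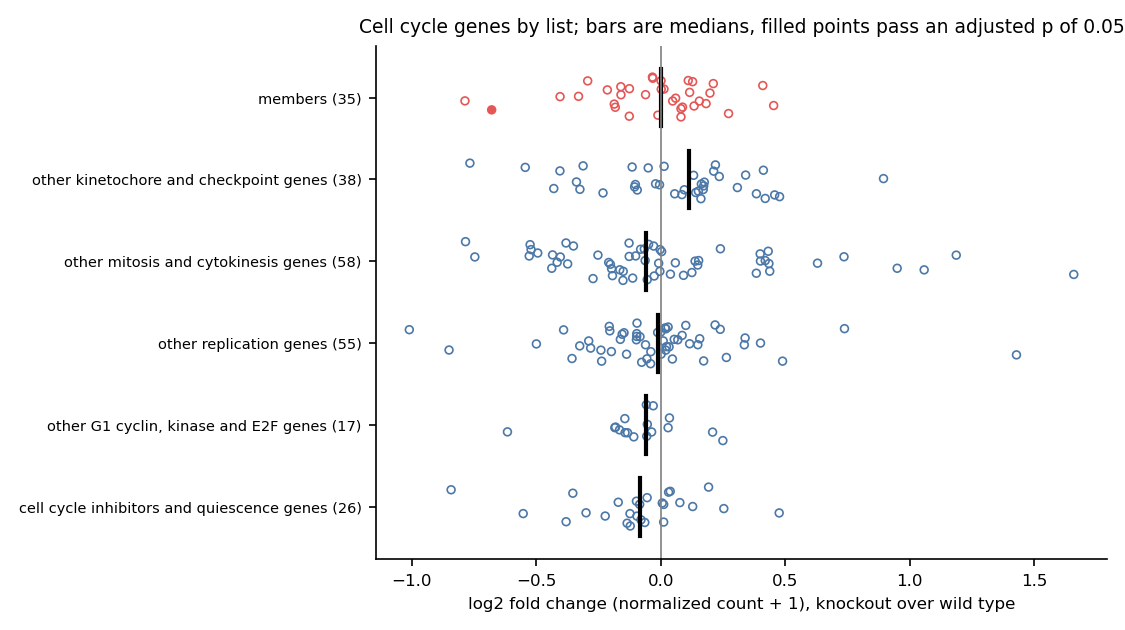
Log2 fold change (x axis, knockout over wild type) of the 35 genes (red) and of 194 other cell cycle genes in 5 lists (blue), 1 point per gene, with the number of genes in brackets; bars are medians and the filled point passed an adjusted p of 0.05. The medians run from -0.08 (inhibitors) to 0.11 (other kinetochore genes), and Cenpf is the filled point.

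Markers of other cell types found in ventricle were read beside these values. Of the fibroblast markers 2 of 12 were higher in the knockout by limma, where 0.287% of all genes were, and the summed level was 6562 to 7613 in wild type and 7419 to 8691 in the knockout. Macrophage markers summed to 2565 to 3153 in wild type and 3095 to 3557 in the knockout, with 0 of 15 past the threshold (limma). Endothelial markers summed to 8077 to 9024 and 7877 to 9465, with 0 of 12. Epicardial markers (25.3 to 98.8 in sum) and neutrophil markers (16.5 to 60.6, with Camp at 0 in every library) were near the floor, and erythroid markers summed to 2958 to 5804. None of the defining markers of fibroblasts, macrophages or endothelium was at 0 throughout. Their part in the results on the 35 genes was not tested.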

How the data were processed

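Polyadenylated RNA from the left ventricular posterior wall was sequenced for 6 mutant and 4 wild type libraries. A strand-marking KAPA kit was used on RNA of integrity above 7, per the labels' protocols. The submitters' processing notes name the build mm10, Cuffdiff 2.2.1.3, Cuffnorm 2.2.1.1, Cufflinks 2.2.1, Bowtie2 and TopHat2 2.1.0, without the role of each. No source used here gives the annotation or the strand setting.

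The authors deposited a normalized signal for each gene, in which every library's counts have been scaled by one factor. From 99.99 to 100% of the values above 0 were whole multiples of the value of 1 read (within 0.1), so reads were recovered by division. In knockout replicate 6 the value of 1 read is 1.01, where such steps are harder to tell from rounding. Of 24160 rows, 23984 matched a symbol (335 of these join several symbols) through RefSeq accessions in a GRCm38.p6 table, the assembly mm10 names. Coordinates come from that table, transcript lengths from GENCODE vM21 (median over matched transcripts) and promoters from RefSeq.

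Genotypes were compared with limma 3.58.1 (R 4.3.3; trend and robust) on log2(value + 1), without covariates, for genes with a mean of at least 1, with two-sided p and Benjamini-Hochberg adjustment at 0.05. Fold changes are on that scale, which understates changes of low genes. Alternatives were other pseudocounts, filters and scalings, library weights, a replicate block, edgeR 4.0.16 (quasi-likelihood), DESeq2 1.42.0 and leaving out each library. Correlations used 100000 permutations for 10 libraries and every order for fewer (scipy 1.17.1). The steps were tested on simulated data.

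The 35 genes and the other lists were chosen with earlier results of these data known. The named genes are Cenpf, the 4 proliferation genes, any member past the threshold, the 2 members of each role and the 2 genes of each other list with the smallest p. Other members are given by ranges.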

Additional observations from a re-analysis of the deposited data

Results flagged for a closer look

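In 8 of 70 sets of values (35 genes in each of the 2 genotypes) 1 library lay far from the rest of its genotype, measured by its gap to the nearest value over the range of the group (Dixon's 95% limit). Chance alone would give about 3.5 such sets, and the sets share libraries. Knockout replicate 4 was high in Cenpa (208 normalized counts) and in Nusap1 (23.4). Knockout replicate 6 was high in Ccna2 (19.2) and in Prc1 (38.4). Knockout replicate 3 was low in Mcm4 (42.7) and knockout replicate 1 in Rrm1 (118). In wild type, replicate 3 was high in Cdk1 (18.0) and replicate 2 was low in Mcm5 (10.8). Cenpf had no such library in either genotype.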

How the results depend on the processing

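Cenpf kept its negative sign under all 24 alternatives run, from -0.80 to -0.57, and its adjusted p ran from 0.00644 to 0.311. The other 34 genes gave 808 values, of which 787 had an adjusted p (DESeq2 gave none for 21 genes) and 0 of these passed, while 84 of the 808, in 21 genes, had the opposite sign (adjusted p here is from limma unless another tool is named). The number of the 35 that passed was 0 with no filter on the mean (adjusted p of Cenpf 0.0756), 0 with limma without trend and robust steps, 0 by edgeR, 0 with both wild type replicates 2 and 3 left out (chosen after seeing the data), and 0 to 1 when leaving out 1 library. Over all genes 42 were higher and 25 lower. These became 0 and 0 without trend and robust steps, 71 and 47 with library weights, 75 and 47 by DESeq2, 23 higher without both wild type replicates 2 and 3, 51 lower by edgeR without wild type replicate 2, and 16 to 69 higher and 10 to 48 lower when leaving out 1 library. Among the other cell cycle genes 0 to 1 passed when leaving out 1 library (Cks2, without wild type replicate 4).

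Sign changes were not limited to values near 0. Over all alternatives the sparse genes Aurkb, Ccnb2 and Plk1 ran from -0.60 to 0.57, from -0.38 to 0.59 and from -0.55 to 0.35, widths larger than the Cenpf change. The log2 fold change of Kif11 was -0.020 with library weights, -0.13 by edgeR without wild type replicate 2 and -0.17 without both wild type replicates 2 and 3. That of Top2a was -0.050 with library weights and -0.060 without both libraries. Leaving out 1 library gave -0.024 to 0.44 for Kif11, -0.10 to 0.12 for Top2a, -0.18 to 0.15 for Mki67 and -0.29 to 0.012 for Ccna2. It gave r of -0.19 to 0.41 (Kif11), -0.10 to 0.24 (Mcm5), -0.017 to 0.45 (Top2a) and 0.20 to 0.59 (Mki67) with Cenpf, the last positive in every run. The log2 difference of Cenpf relative to another gene was -0.77 to -0.50 for Mki67, -0.85 to -0.47 for Top2a, -1.02 to -0.69 for Kif11 and -1.16 to -0.78 for Mcm5, with 8, 4, 9 and 9 of 10 such runs past the threshold. These ratio runs reuse the same libraries, and Cenpf entered them because it was known to be lower. Their counts therefore give no independent support. Fewer libraries also allow fewer splits (84 without wild type replicate 2, 210 with all), which raises the smallest possible p. The cause of the sign changes was not tested.

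Same-numbered libraries of the 2 genotypes did not deviate together (correlations of their deviations -0.060, -0.032, -0.060 and -0.0035 for replicates 1 to 4). The numbers thus showed no pairing, though such correlations cannot exclude one. With the replicate block 1 of the 35 passed, Cenpf at -0.80 (limma, adjusted p = 0.023), and Top2a was at -0.17.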
